A study of Mus musculus with 2 samples.

Results

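Fgfr2, Il22ra1, Bmpr1a, Bmpr2, Lifr and Egfr encode receptors of growth factors and cytokines that act on epithelial cells, some of them linked to thymic regeneration. They were studied in thymic epithelial cells (TECs). The 6 genes were chosen by name as a set of such receptors, out of 32285 genes listed in the count matrices. Earlier results of these data were known when they were chosen. Each was described across TEC types and between a control and an irradiated library. TECs of C57BL/6 mice, 9 weeks old by the sample labels, were profiled by droplet single-cell RNA sequencing, in which each captured transcript is counted once as a unique molecular identifier (UMI). According to the methods of the study, each library pooled TECs sorted from 3 mice, either untreated or 15 days after sublethal whole-body irradiation. Each condition was therefore 1 library, and no test of irradiation was possible.

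The deposit was contradictory on which library was which. The sample labelled as irradiated carried matrix files named for the control, and the sample labelled as control carried files named for irradiation. The numbers of cells that the study assigned to its conditions were the ones left by its filter under the file names, so the file names were followed here, and the library called control below is the one labelled radiation. If the labels were right instead, every difference between the libraries would have the opposite sign, while the differences between TEC types would stand.

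These receptors sit at the start of separate signaling routes. FGFR2 binds fibroblast growth factors such as FGF7, and EGFR binds ligands such as EGF and amphiregulin. Both are tyrosine kinases that feed the ERK pathway. BMPR1A and BMPR2 are serine/threonine kinases that pair as type I and type II receptors of bone morphogenetic proteins such as BMP4 and signal through SMAD1 and SMAD5. LIFR and IL22RA1 lack a kinase of their own: LIFR pairs with gp130 (Il6st) and IL22RA1 with the beta chain of the IL-10 receptor (Il10rb), and both act through JAK kinases and STAT3. FGF7, IL-22 and BMP4 are each known to promote recovery of the injured thymus in mice. The study does not name LIF or the ligands of EGFR among such factors.

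After the study's filter (over 2000 and under 7500 detected genes, under 15% mitochondrial UMIs), 3233 control and 5070 irradiated cells remained, with medians of 13412 and 13004 UMIs per cell. They held 51586327 and 75542631 UMIs in all, and 5 of the kept barcodes occurred in both libraries. Cells were assigned to types by raw UMIs of marker genes, and a cell took the first gate it met. The 8 epithelial gates were cortical TECs (cTEC; Psmb11 and Prss16; 158 control and 350 irradiated cells), tuft (169 and 164), cycling medullary TECs (mTEC; 244 and 607), Aire-high mTECs (700 and 1148), keratinocyte-like (173 and 186), enterocyte- and microfold-like (133 and 170), Ccl21a-high mTECs (871 and 1438) and Pdpn-positive cells (303 and 267). Genes not used for gating peaked in their own gate for 7 of 7 cTEC, 6 of 6 tuft and 7 of 7 cycling check genes in both libraries, and for 3 to 5 of 6 in the keratinocyte-like, enterocyte- and microfold-like, Aire-high and Ccl21a-high gates. Only 2 of 6 did so for the Pdpn-positive gate, which is therefore named by its marker alone. This gate came last, after Ccl21a-high mTECs, so its cells had fewer than 50 Ccl21a UMIs. Without cells that met more than 1 gate, Ccl21a-high mTECs fell from 871 to 467 control and from 1438 to 698 irradiated cells. The cells left out there also carried Pdpn. Below, Pdpn-positive cells means this last gate and not all cells with Pdpn. A further 77 and 171 cells carried thymocyte RNA, 6 and 5 were non-epithelial, and 399 and 564 met no gate. A total of 1157 control cells (35.8%) and 2084 irradiated cells (41.1%) met more than 1 gate.

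On the mouse genome (GRCm38), RefSeq places Fgfr2 (ENSMUSG00000030849) at chr7:130162451-130266808, minus strand. It places Egfr (ENSMUSG00000020122) at chr11:16752203-16913907, plus strand. Of the BMP receptors, it places Bmpr1a (ENSMUSG00000021796) at chr14:34411061-34503336, minus strand, and Bmpr2 (ENSMUSG00000067336) at chr1:59764279-59878081, plus strand. It places Lifr (ENSMUSG00000054263) at chr15:7090610-7197489, plus strand, and Il22ra1 (ENSMUSG00000037157) at chr4:135728159-135755383, plus strand. UMIs were read from transcript 3′ ends, so levels are compared here between TEC types and libraries for 1 gene at a time and not between genes. The splice forms of Fgfr2 that differ in ligand choice (IIIb and IIIc) cannot be told apart. For Il22ra1, the single GENCODE M21 transcript stops 3243 bases before the RefSeq 3′ end, and which annotation the authors counted with is not given in the sources used here. The Fgfr2 gene model of GENCODE M21 extends to position 133123350, far beyond the RefSeq start.

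The 250 bases before a RefSeq transcript start of Fgfr2, Bmpr1a and Lifr are shown because these genes had a shared pattern over TEC types, described below, but differ in base composition before their starts. The sequences are on the gene's strand, from RefSeq on GRCm38.p6, and capitals mark the GC box GGGCGG or its reverse complement CCGCCC.
Fgfr2 (chr7:130266809-130267058, minus strand): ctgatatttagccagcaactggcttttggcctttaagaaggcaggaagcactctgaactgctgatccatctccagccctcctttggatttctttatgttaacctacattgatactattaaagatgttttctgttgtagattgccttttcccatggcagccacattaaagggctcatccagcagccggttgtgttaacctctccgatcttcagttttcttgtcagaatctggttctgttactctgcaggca
Bmpr1a (chr14:34502547-34502796, minus strand): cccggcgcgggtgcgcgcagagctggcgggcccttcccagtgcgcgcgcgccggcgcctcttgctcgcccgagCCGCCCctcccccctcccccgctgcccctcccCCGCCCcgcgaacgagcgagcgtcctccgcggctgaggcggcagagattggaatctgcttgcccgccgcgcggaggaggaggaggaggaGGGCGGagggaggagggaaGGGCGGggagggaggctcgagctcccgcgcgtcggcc
Lifr (chr15:7129322-7129571, plus strand): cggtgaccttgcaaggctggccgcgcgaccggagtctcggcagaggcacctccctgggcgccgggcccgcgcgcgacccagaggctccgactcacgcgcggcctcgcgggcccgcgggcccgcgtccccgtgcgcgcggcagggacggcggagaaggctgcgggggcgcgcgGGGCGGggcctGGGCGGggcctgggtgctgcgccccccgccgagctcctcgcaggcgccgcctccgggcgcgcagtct
The Fgfr2 window held 2 CpG dinucleotides and no GC box. The windows of Bmpr1a and Lifr held 36 and 43 CpGs, with 4 and 2 GC boxes. The median over 32851 promoter windows of the same length was 6 CpGs, and 32.7% of them held a GC box on either strand. The window of Bmpr1a and both windows of Lifr lie inside the RefSeq gene spans given above, before internal transcript starts. The window of the other Lifr start (chr15:7140292-7140541) held 3 CpGs and no GC box. The windows of Bmpr2, Egfr and Il22ra1 held 22, 11 and 9 CpGs with 1, 1 and 2 GC boxes. None of the 7 windows held TATAAA, found in 12.4% of all windows on either strand, or the STAT motif TTCNNNGAA, found in 7.02%. These matches describe the letters only.

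Across TEC types, 5 of the 6 receptors shared a pattern: their levels were high in cTECs, Ccl21a-high mTECs and Pdpn-positive cells, intermediate in keratinocyte-like cells, and low in Aire-high mTECs and in enterocyte- and microfold-like cells. Il22ra1 was the exception, with too few UMIs to test. Counts were summed per gate and library and compared with the edgeR quasi-likelihood test, each gate against the mean of the other 7, with Benjamini-Hochberg adjustment over 15633 genes. Library was a term in the fit, so the residual spread was how gate differences varied between the libraries. It came from only these 2 libraries, which also differed in condition, and nothing in the labels describes separate replicates. The p-values therefore measure only how gate differences repeated in these 2 libraries, not a spread between mice. Over all 8 gates, the 5 tested receptors all differed by the F test, as did 90.9% of all genes tested, so a difference among these gates is the rule rather than a property of the receptors.

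The direction of the differences was less common. The receptors and gates were chosen with earlier results of these data known. The shares of all genes beside the counts are therefore a description and not a test of the set. In cTECs, 5 of 5 receptors were higher than in the other gates, against 22.5% of all genes (22.3% were lower). In Ccl21a-high mTECs, 5 of 5 were higher, against 21.9% of all genes (24.4% lower), and in Pdpn-positive cells 5 of 5 were higher, against 19.7% (18.4% lower). The keratinocyte-like gate had 4 of 5 higher, against 17.5% of all genes (10.7% lower), with Bmpr1a not passing. Conversely, Aire-high mTECs had 5 of 5 lower, against 26.3% of all genes (34.6% higher), and the enterocyte- and microfold-like gate had 5 of 5 lower, against 23.8% (27.9% higher). In tuft cells 4 of 5 were lower, against 20.2% of all genes (24.6% higher), with Bmpr2 not passing. In cycling mTECs 4 of 5 were lower, against 24.3% of all genes (30.9% higher), with Bmpr1a not passing. In all, 37 of the 40 combinations of receptor and gate passed. Since the 5 genes vary together, these are not 40 independent results.

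**Figure D1:**
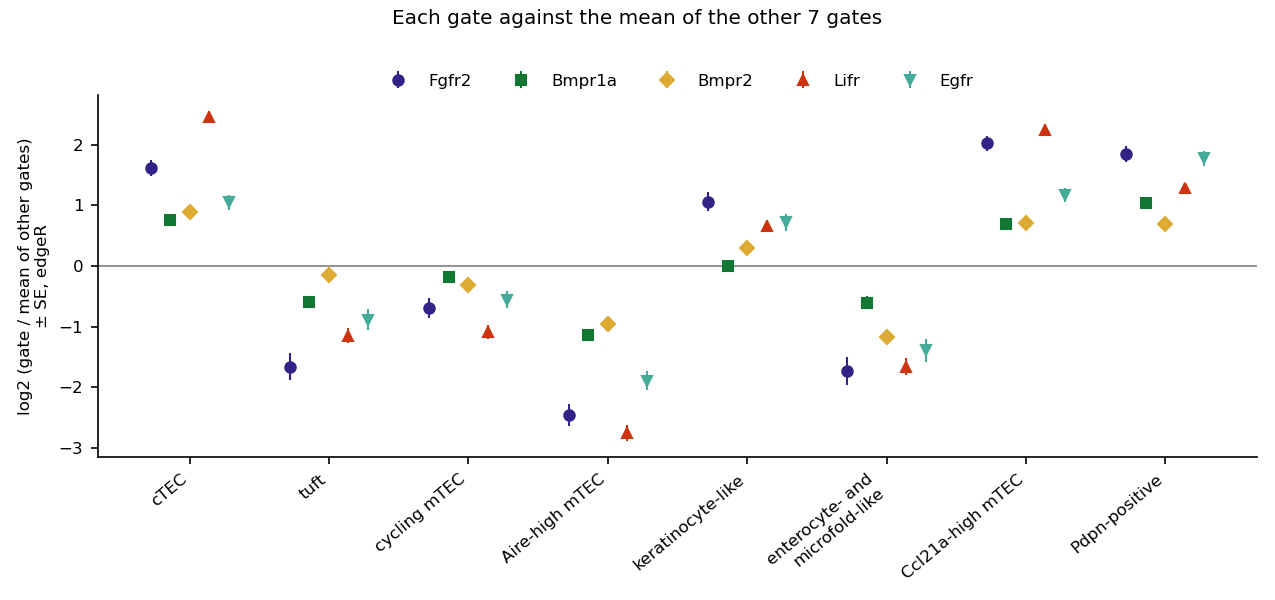
Difference of each gate from the mean of the other 7 gates (y axis, log2 scale, ± SE from edgeR) for the 5 receptors tested, by gate (x axis). Points lie above 0 for cTEC, Ccl21a-high and Pdpn-positive gates and below 0 for tuft, cycling, Aire-high and enterocyte- and microfold-like gates, with Lifr at 2.46 in cTEC and -2.75 in Aire-high mTEC as the extremes.

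The scale changed calls in the cycling and keratinocyte-like gates. Cycling mTECs held far more UMIs per cell (medians of 28232 and 23607) than Ccl21a-high mTECs (10801 and 10157). Counted per cell instead of per UMI, all genes shifted upward in the cycling gate by a median of 0.74 on the log2 scale. On that scale Bmpr1a and Bmpr2 were higher in cycling mTECs than in the other gates (log2 0.55 and 0.41, adjusted p = 0.000145 and 0.000375 by edgeR with Benjamini-Hochberg adjustment) and Fgfr2 and Egfr did not pass. Relative to the shift of all genes, the 5 receptors lay between -0.18 (Bmpr1a) and -1.09 (Lifr). In the keratinocyte-like gate, Bmpr2 no longer passed on that scale (log2 0.19, adjusted p = 0.117 by edgeR, against 0.30 and 0.0386 per UMI). The keratinocyte-like result also depended on cells that met several gates. With those left out, which kept 53 control and 57 irradiated cells in that gate, Lifr was lower there than in the other gates (log2 -0.61, adjusted p = 0.0422 by edgeR), and Fgfr2, Bmpr2 and Egfr no longer passed.

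**Figure D2:**
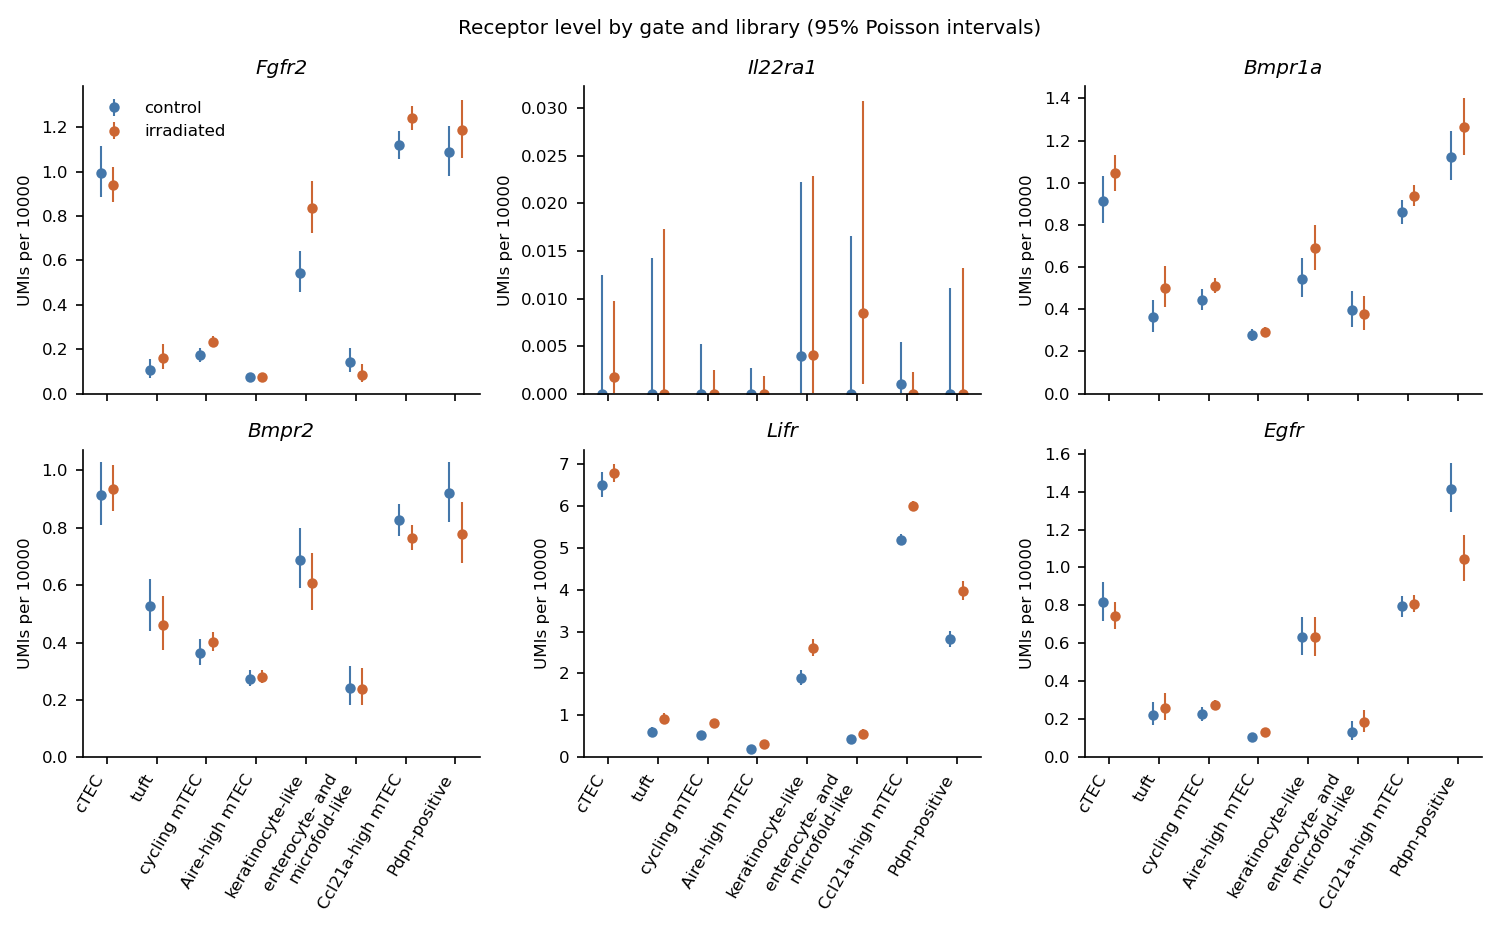
Level of each receptor (y axis, UMIs per 10000 UMIs of the gate, each panel with its own scale starting at 0) by gate (x axis) in the control (blue) and irradiated (orange) library, with exact 95% Poisson intervals. Fgfr2, Bmpr1a, Bmpr2, Lifr and Egfr stand high in cTEC, Ccl21a-high and Pdpn-positive gates, whereas the Il22ra1 panel spans only 0 to 2 UMIs per gate.

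Fgfr2, the receptor of FGF7 and FGF10, was highest in Ccl21a-high mTECs, where its level was 1.12 UMIs per 10000 in the control library (95% Poisson interval 1.05 to 1.18) and 1.24 in the irradiated library (1.19 to 1.30). Pdpn-positive cells had 1.09 and 1.19 and cTECs 0.995 and 0.939, and keratinocyte-like cells 0.544 and 0.836. Gates were taken as apart where the intervals of both libraries lay clear of both intervals of the next gate, and by this measure these 4 overlapped with their neighbors and were apart from the rest. Below them, cycling mTECs had 0.172 and 0.234, tuft cells 0.108 and 0.160, enterocyte- and microfold-like cells 0.144 and 0.0853 and Aire-high mTECs 0.0747 and 0.0752. The highest gate exceeded the lowest by 15.0-fold in the control and 16.5-fold in the irradiated library. Against the other gates, the log2 difference (± SE) was 2.02 ± 0.12 in Ccl21a-high mTECs (edgeR adjusted p = 3.37e-07), 1.62 ± 0.14 in cTECs (2.79e-06) and -2.46 ± 0.18 in Aire-high mTECs (5.70e-07). The 4 upper gates and the 4 lower gates did not overlap.

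Egfr was highest in Pdpn-positive cells, with 1.41 UMIs per 10000 in the control (95% interval 1.29 to 1.55) and 1.04 in the irradiated library (0.927 to 1.17), above every other gate in both libraries. Ccl21a-high mTECs had 0.795 and 0.807, cTECs 0.816 and 0.743 and keratinocyte-like cells 0.632 and 0.631, with overlapping intervals between neighbors. The remaining gates were lower, from 0.227 and 0.274 in cycling mTECs through 0.224 and 0.258 in tuft cells and 0.135 and 0.183 in enterocyte- and microfold-like cells to 0.107 and 0.131 in Aire-high mTECs. The log2 difference was 1.77 ± 0.12 in Pdpn-positive cells (edgeR adjusted p = 1.45e-06), 1.18 ± 0.12 in Ccl21a-high mTECs (1.06e-05) and -1.89 ± 0.15 in Aire-high mTECs (1.23e-06). Pdpn-positive cells also held the highest summed level of 7 mesenchymal markers among the 8 gates (18.5 and 8.84 UMIs per 10000 against 0.517 to 3.27 in the others), with none of the 7 at 0. The part of mesenchymal RNA in this gate's receptor levels was not tested.

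Bmpr1a, the type I receptor, reached 1.12 and 1.26 UMIs per 10000 in Pdpn-positive cells of the control and irradiated library, 0.914 and 1.04 in cTECs and 0.860 and 0.938 in Ccl21a-high mTECs. These 3 overlapped with their neighbors in the order and stood apart from keratinocyte-like cells (0.544 and 0.689). Cycling mTECs (0.442 and 0.511), tuft (0.364 and 0.503), enterocyte- and microfold-like (0.396 and 0.375) and Aire-high cells (0.276 and 0.291) followed with overlapping intervals. The span was 4.07-fold in the control and 4.34-fold in the irradiated library. The log2 difference was 1.04 ± 0.08 in Pdpn-positive cells (edgeR adjusted p = 2.85e-06) and -1.14 ± 0.09 in Aire-high mTECs (1.01e-06).

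Bmpr2, the type II partner, had 0.914 and 0.936 UMIs per 10000 in cTECs, 0.920 and 0.778 in Pdpn-positive cells and 0.826 and 0.765 in Ccl21a-high mTECs. Keratinocyte-like cells (0.688 and 0.607), tuft cells (0.526 and 0.460) and cycling mTECs (0.364 and 0.403) came next, and every neighbor down to cycling mTECs overlapped. Aire-high mTECs (0.274 and 0.280) and enterocyte- and microfold-like cells (0.243 and 0.239) were lowest and stood apart from the rest. The span of 3.79-fold in the control and 3.92-fold in the irradiated library was the narrowest of the 5 tested receptors. The log2 difference was 0.89 ± 0.08 in cTECs (edgeR adjusted p = 8.28e-06) and -1.17 ± 0.12 in the enterocyte- and microfold-like gate (1.05e-05), and it did not pass in tuft cells (-0.15 ± 0.10, 0.253).

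Lifr, the receptor of leukemia inhibitory factor, had the widest span of the 5. Its level was 6.50 UMIs per 10000 in control cTECs (95% interval 6.21 to 6.80) and 6.78 in irradiated cTECs, and 5.19 and 5.99 in Ccl21a-high mTECs. Pdpn-positive cells followed with 2.82 and 3.97 and keratinocyte-like cells with 1.90 and 2.60. Tuft cells (0.611 and 0.907), cycling mTECs (0.534 and 0.824) and enterocyte- and microfold-like cells (0.441 and 0.559) were lower, and Aire-high mTECs lowest (0.202 and 0.327). The intervals of cTECs, of Ccl21a-high mTECs and of Aire-high mTECs overlapped with no other gate, whereas those of Pdpn-positive and keratinocyte-like cells overlapped across the libraries, as did those of tuft, cycling and enterocyte- and microfold-like cells. The span was 32.2-fold in the control and 20.7-fold in the irradiated library. The log2 difference was 2.46 ± 0.09 in cTECs (edgeR adjusted p = 3.39e-09), 2.25 ± 0.09 in Ccl21a-high mTECs (2.96e-08) and -2.75 ± 0.13 in Aire-high mTECs (3.21e-08).

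Il22ra1 was all but undetected. All kept control cells held 4 UMIs, and all kept irradiated cells 4 UMIs, or 7.75e-04 and 5.30e-04 per 10000. In the control library 1 UMI lay in the keratinocyte-like gate, 1 in Ccl21a-high mTECs and 2 in cells of no gate. In the irradiated library 2 lay in the enterocyte- and microfold-like gate, 1 in keratinocyte-like cells and 1 in cTECs. The 700 control and 1148 irradiated Aire-high mTECs held 0 UMIs, which allows a level of up to 0.00215 and 0.00153 per 10000. The gene did not pass the filter on low counts and was not tested. A level this close to 0 limits only UMIs counted at this depth within the annotated 3′ end, which the RefSeq model exceeds as given above, and it does not show that the receptor was absent.

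Between the libraries, Lifr was higher in the irradiated library in 8 of 8 gates, whereas the other 4 tested receptors had ratios of both signs. Among 4845 genes with at least 100 UMIs in every gate, 5.22% were higher in all 8. The libraries differed by whatever separates 2 pools of mice, of which irradiation is 1 difference, and with 1 library per condition the condition and the library cannot be told apart. The log2 ratios below are of irradiated over control levels, with a range taken from the opposite ends of both 95% Poisson intervals, which covers counting error only.

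**Figure D3:**
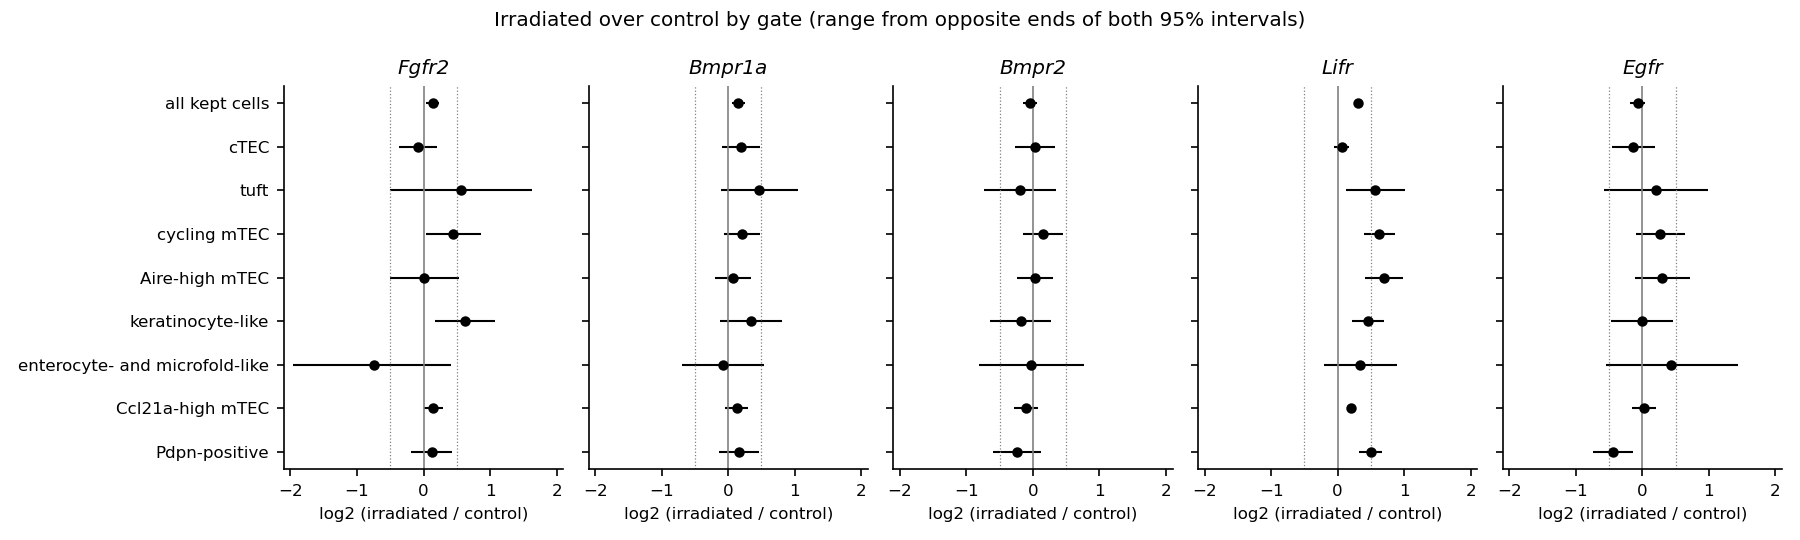
Log2 ratio of the irradiated over the control level (x axis) for 5 receptors over all kept cells and in each gate (y axis). Bars span the opposite ends of both 95% Poisson intervals, the solid line marks 0 and dotted lines an absolute log2 ratio of 0.5, and all 8 Lifr gates lie right of 0.

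For Lifr, the log2 ratio over all kept cells was 0.31 (range 0.27 to 0.36), from 10993 and 19997 UMIs. It was 0.70 in Aire-high mTECs (0.42 to 0.98), 0.62 in cycling mTECs (0.40 to 0.86) and 0.57 in tuft cells (0.13 to 1.01). Ratios of 0.50 in Pdpn-positive cells (0.32 to 0.67), 0.46 in keratinocyte-like cells (0.21 to 0.70) and 0.21 in Ccl21a-high mTECs (0.14 to 0.27) also had ranges above 0. The ranges in cTECs (0.06, -0.05 to 0.17) and in the enterocyte- and microfold-like gate (0.34, -0.20 to 0.89) included 0. The 2 gates of highest Lifr, cTECs and Ccl21a-high mTECs, thus had the smallest ratios. The mean over the 8 gates with equal weight was 0.43. In the enterocyte- and microfold-like gate, the cell with most Lifr held 20 of 98 control and 39 of 131 irradiated UMIs. Leaving out cells that met more than 1 gate turned the cycling ratio to -0.15, with 20 control cells left in that gate, and doubling the gate minimums turned the cTEC ratio to -0.09.

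Fgfr2 had a log2 ratio of 0.14 over all kept cells (0.04 to 0.24) from 2516 and 4050 UMIs. In keratinocyte-like cells it was 0.62 (0.17 to 1.07), in cycling mTECs 0.44 (0.03 to 0.87) and in Ccl21a-high mTECs 0.15 (0.00 to 0.30). The keratinocyte-like ratio became -0.24 without cells that met more than 1 gate. In the other 5 gates the range included 0, from -0.74 in the enterocyte- and microfold-like gate (32 and 20 UMIs) to 0.56 in tuft cells (28 and 34 UMIs).

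Bmpr1a had a ratio of 0.15 over all kept cells (0.06 to 0.25, 2897 and 4718 UMIs), and its ratio was above 0 in 7 of 8 gates, between -0.08 and 0.47, with every range including 0. Its partner Bmpr2 had -0.04 (-0.14 to 0.06, 2806 and 3987 UMIs), with 3 of 8 gates above 0, between -0.24 in Pdpn-positive cells and 0.15 in cycling mTECs. For both BMP receptors, no gate had a range clear of 0.

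Egfr had a ratio of -0.07 over all kept cells (-0.18 to 0.04, 2377 and 3316 UMIs). In Pdpn-positive cells, the gate of its highest level, the ratio was -0.44 (-0.74 to -0.14), the only range of any receptor wholly below 0. The 7 mesenchymal markers summed to 18.5 and 8.84 UMIs per 10000 in the same gate, as given above, and their part in this ratio was not tested. The other 7 gates lay between -0.14 in cTECs and 0.43 in enterocyte- and microfold-like cells, each with a range including 0.

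The sizes of these ratios were then set beside those of all genes. An absolute log2 ratio of at least 0.5 was taken as the threshold, counted over genes with at least 100 UMIs in the cells compared. Over all kept cells, 0 of 5 receptors passed it, against 13.6% of all genes. The counts were 0 of 5 in cTECs (7.86% of all genes), 1 of 4 in tuft cells (11.0%), 1 of 5 in cycling mTECs (7.55%), 1 of 5 in Aire-high mTECs (11.7%), 1 of 5 in keratinocyte-like cells (13.7%), 0 of 3 in the enterocyte- and microfold-like gate (11.3%), 0 of 5 in Ccl21a-high mTECs (5.44%) and 0 of 5 in Pdpn-positive cells (10.8%). The 4 that passed were Lifr in tuft, cycling and Aire-high cells and Fgfr2 in keratinocyte-like cells, each upward. Fgfr2 in tuft cells and in the enterocyte- and microfold-like gate passed 0.5 on fewer than 100 UMIs. The median log2 ratio over all kept cells was 0.14 for the 5 receptors and -0.05 for all genes.

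The shares of cells with at least 1 UMI, after thinning every cell to 4000 UMIs, had the same upper and lower gates, though not in the same order. Lifr was found in 78.3% of control and 83.7% of irradiated Ccl21a-high mTECs, 65.2% and 74.9% of cTECs, 58.4% and 65.5% of Pdpn-positive cells, and 4.43% and 8.19% of Aire-high mTECs. The irradiated share was higher in 8 of 8 gates, and exact 95% Clopper-Pearson intervals stood apart in 3 of them: cycling mTECs (15.2% and 25.2%), Aire-high and Ccl21a-high mTECs. For the other 4 tested receptors no gate had intervals apart. Fgfr2 was found in 36.6% and 39.3% of Pdpn-positive cells and in 1.18% and 3.05% of tuft cells. Tuft cells were set beside the other gates as a background, and held Lifr in 17.2% and 23.8% of cells, Bmpr1a in 12.4% and 16.5%, Bmpr2 in 17.8% and 20.1% and Egfr in 10.7% and 9.15%. For these 4 receptors the shares in Aire-high mTECs lay below those in tuft cells. Egfr ranged from 3.86% and 4.53% in Aire-high mTECs to 40.9% and 31.5% in Pdpn-positive cells. Without thinning, the shares over all kept cells were 39.1% and 40.3% for Fgfr2, 57.7% and 61.7% for Lifr, and 40.8% and 39.6% for Egfr. The unthinned Lifr share was not higher in the irradiated library in every gate. It was 21.05% in control and 19.41% in irradiated enterocyte- and microfold-like cells, and 82.84% and 82.77% in Pdpn-positive cells. For Il22ra1, the unthinned shares were 0.124% of control cells (exact 95% interval 0.0337% to 0.316%) and 0.0789% of irradiated cells (0.0215% to 0.202%), from 4 cells each, and thinning removed all of these UMIs.

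Many cells held several of the receptors. After thinning, 34.0% and 35.2% of Pdpn-positive cells, 31.3% and 32.9% of Ccl21a-high mTECs and 29.7% and 34.0% of cTECs had UMIs of 3 or more of the 6 genes. In Aire-high mTECs the share was 0.571% and 0.871%, and 74.4% and 71.9% of those cells had none. The partners of each receptor complex were then set side by side. Bmpr1a and Bmpr2 occurred together in 0.752% to 12.7% of the cells of a gate, and in all 16 combinations of gate and library the product of their separate shares lay within the exact 95% interval. Lifr and its partner Il6st occurred together in 38.2% of irradiated and 36.2% of control Ccl21a-high mTECs, with products of 36.9% and 35.1%. The shared detection lay above the product in every combination of gate and library, but in 11 of 16 the product was within the exact 95% interval. In the other 5, all in gates of low Lifr, the product lay below the interval, as in irradiated Aire-high mTECs (1.48% against 0.506%). The co-receptor of IL22RA1, Il10rb, was found in 24.4% and 23.1% of all kept cells after thinning. Thinning left no Il22ra1 UMI, so shared detection of Il10rb and Il22ra1 could not be assessed.

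Il6st, the gp130 chain shared by LIFR and related receptors, followed Lifr in part: 1.57 and 1.60 UMIs per 10000 in control and irradiated Ccl21a-high mTECs, 1.68 and 1.45 in Pdpn-positive cells, 1.02 and 0.960 in cTECs and 0.123 and 0.149 in Aire-high mTECs (log2 difference -2.33, edgeR adjusted p = 3.85e-08). Its ratio between libraries was -0.04 over all kept cells (-0.13 to 0.04) and 0.27 in Aire-high mTECs (-0.11 to 0.66), and a difference from the Lifr ratios could not be tested. After thinning, the share of cells with Il6st was higher in the irradiated library in 6 of 8 gates, with intervals apart in Aire-high mTECs (2.57% and 6.18%). Of the gp130 family receptors, Il11ra1, the receptor of IL-11, had the most UMIs and a ratio of -0.18 (-0.22 to -0.14). Il11ra1 peaked in Aire-high mTECs (4.90 and 4.10; log2 difference 1.38, adjusted p = 2.44e-07), the gate where Lifr was lowest. Of 6 ligands, Ctf1 (cardiotrophin 1) had the most UMIs, at 0.972 and 0.992 in cTECs, where it was higher than in the other gates (log2 2.12, adjusted p = 1.81e-07). Lif itself was sparse (198 and 208 UMIs) and peaked in the enterocyte- and microfold-like gate (0.171 and 0.124).

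Il10rb, the partner of IL22RA1, was present in every gate, from 0.477 and 0.429 UMIs per 10000 in Aire-high mTECs to 1.44 and 1.15 in Pdpn-positive cells, with a ratio of -0.12 (-0.21 to -0.04). Il22ra2, which encodes a soluble IL-22 binding protein, had 26 and 9 UMIs. Il22 itself was counted in the TECs, in Aire-high mTECs at 0.533 and 0.250 UMIs per 10000 (log2 difference 5.69, adjusted p = 7.95e-06). Its ratio was -0.98 over all kept cells and -1.09 in Aire-high mTECs (-1.33 to -0.86, 742 and 489 UMIs), but 1.17 as the mean over 8 gates. That mean included cTECs (0 and 43 UMIs), cycling mTECs (0 and 10) and the enterocyte- and microfold-like gate (3 and 33). With 0 control UMIs, a ratio rests on the 0.5 UMIs added. The sign of the Il22 ratio thus depended on the weighting and on these sparse gates. Reg3g and Reg3b, antimicrobial lectins that IL-22 induces in gut epithelium, peaked in the enterocyte- and microfold-like gate (64.1 and 60.1 for Reg3g, 9.02 and 0.559 for Reg3b). Reg3b had a ratio of -2.52 over all kept cells (-2.65 to -2.40), but its gates had both signs, from -4.01 in the enterocyte- and microfold-like gate to 2.36 in cycling mTECs (3 and 37 UMIs) among the gates with UMIs in both libraries, with 3 of 8 above 0 and a mean of -1.49. The ratio of Socs3, a feedback inhibitor of STAT3 named after its values were seen, was -1.10 (-1.15 to -1.05), below 0 in all 8 gates. In its list, 4 of 7 genes were past 0.5 downward over all kept cells, against 13.6% of all genes in either direction. These were Il22, Socs3, Reg3g and Reg3b, whereas Jak1 had a ratio of 0.14 and Stat3 of 0.08. Reg3g had -0.71 over all kept cells but -0.007 as the mean over 8 gates, with 3 of 8 gates above 0. Of the 4, only Socs3 was thus below 0 in every gate.

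Among the FGF genes, the receptor Fgfr4 had a ratio of -0.86 (-1.48 to -0.26) on 102 and 82 UMIs. The heparan sulfate coreceptor Sdc4 peaked in tuft cells (13.7 and 13.1 UMIs per 10000; log2 difference 2.67, edgeR adjusted p = 3.00e-10), where Fgfr2 was low. Fgf7, the ligand named keratinocyte growth factor, had 45 and 114 UMIs and a ratio of 0.78 (0.09 to 1.51), and Fgf10 had 63 and 66 UMIs. Of the Fgf7 UMIs, 15 and 66 lay in Aire-high mTECs, the only gate with a range clear of 0 (1.61, 0.56 to 2.83). The Fgf7 ratio was above 0 in 5 of 8 gates. Fgf21 was the ligand with the most UMIs, peaking in Aire-high mTECs (12.4 and 13.3). Of 10 feedback and target genes of FGF and ERK signaling, Egr1, an immediate-early transcription factor, had a ratio of -1.12 (-1.15 to -1.08), below 0 in all 8 gates.

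Among the BMP genes, 1 of the other 5 receptors was past 0.5, downward, against 13.6% of all genes in either direction. This was Acvrl1, with a ratio of -0.90 (-1.71 to -0.10) on 60 and 47 UMIs. The median ratio of the 5 was -0.30. The ranges of Acvr2b (-0.49, -0.85 to -0.13) and Acvr2a (-0.30, -0.50 to -0.09) lay below 0. Those of Acvr1 (-0.02) and Bmpr1b (0.13) included 0. Bmp4 had 146 and 114 UMIs, a ratio of -0.91 (-1.42 to -0.40) and its peak in Pdpn-positive cells (log2 difference 3.48, edgeR adjusted p = 0.00292). In that gate Bmp4 had 74 and 25 UMIs, beside the mesenchymal marker levels of 18.5 and 8.84 UMIs per 10000 given above, whose part in its ratio was not tested. Bmp7 peaked in Ccl21a-high mTECs (0.719 and 0.708 UMIs per 10000), as did the inhibitor Fst, which encodes follistatin (0.927 and 0.805; ratio -0.35). The SMAD target Id1 was the gene of its list with the largest ratio, 0.48 (0.43 to 0.54), above 0 in all 8 gates. The Id1 range included 0 in cTECs (-0.13 to 0.44) and in the enterocyte- and microfold-like gate (-0.68 to 0.75). Its relative Id3 had -0.27 (-0.32 to -0.22), with 2 of 8 gates above 0. These were tuft cells (0.55, 0.12 to 0.98) and cycling mTECs (0.36, 0.12 to 0.59). Id1 peaked in Ccl21a-high mTECs (4.19 and 5.76; log2 difference 2.59, adjusted p = 4.26e-07).

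Among the EGF genes, the partner receptors had other patterns than Egfr. Erbb2 was higher than in the other gates in keratinocyte-like cells (0.488 and 0.312 UMIs per 10000; log2 1.33, edgeR adjusted p = 1.92e-05) and lower in cTECs (-1.37, 4.34e-05). Erbb3 was lowest in cTECs, on only 3 control and 5 irradiated UMIs (0.0102 and 0.00870 per 10000, log2 -3.91, edgeR adjusted p = 9.53e-06). It peaked in the enterocyte- and microfold-like gate (0.545 and 0.478). Of 8 EGF family ligands tested, 7 were higher in Aire-high mTECs and 8 were lower in Ccl21a-high mTECs than in the other gates, against 34.6% and 24.4% of all genes. Egfr was lower in the former gate and higher in the latter. The ligand list held the neuregulin genes Nrg1 and Nrg4 and was not limited to ligands of EGFR. Nrg4 peaked in tuft cells (0.793 and 0.752) and had a ratio of -1.12 over all kept cells (-1.46 to -0.78). In tuft cells its ratio was -0.08 (-0.51 to 0.35, 205 and 160 UMIs). Tuft cells were 5.23% of control and 3.23% of irradiated cells, whose part in the ratio over all kept cells was not tested. Errfi1, which encodes a feedback inhibitor of EGFR, had -0.63 (-0.75 to -0.51). Both genes were below 0 in all 8 gates. The Errfi1 range was clear of 0 only in tuft cells (-1.39), Aire-high mTECs (-0.55) and Ccl21a-high mTECs (-0.71). For Nrg4 only the Aire-high range was clear of 0 (-1.48, -2.46 to -0.55). Outside tuft and Aire-high cells, no gate held more than 17 Nrg4 UMIs in a library.

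**Figure D4:**
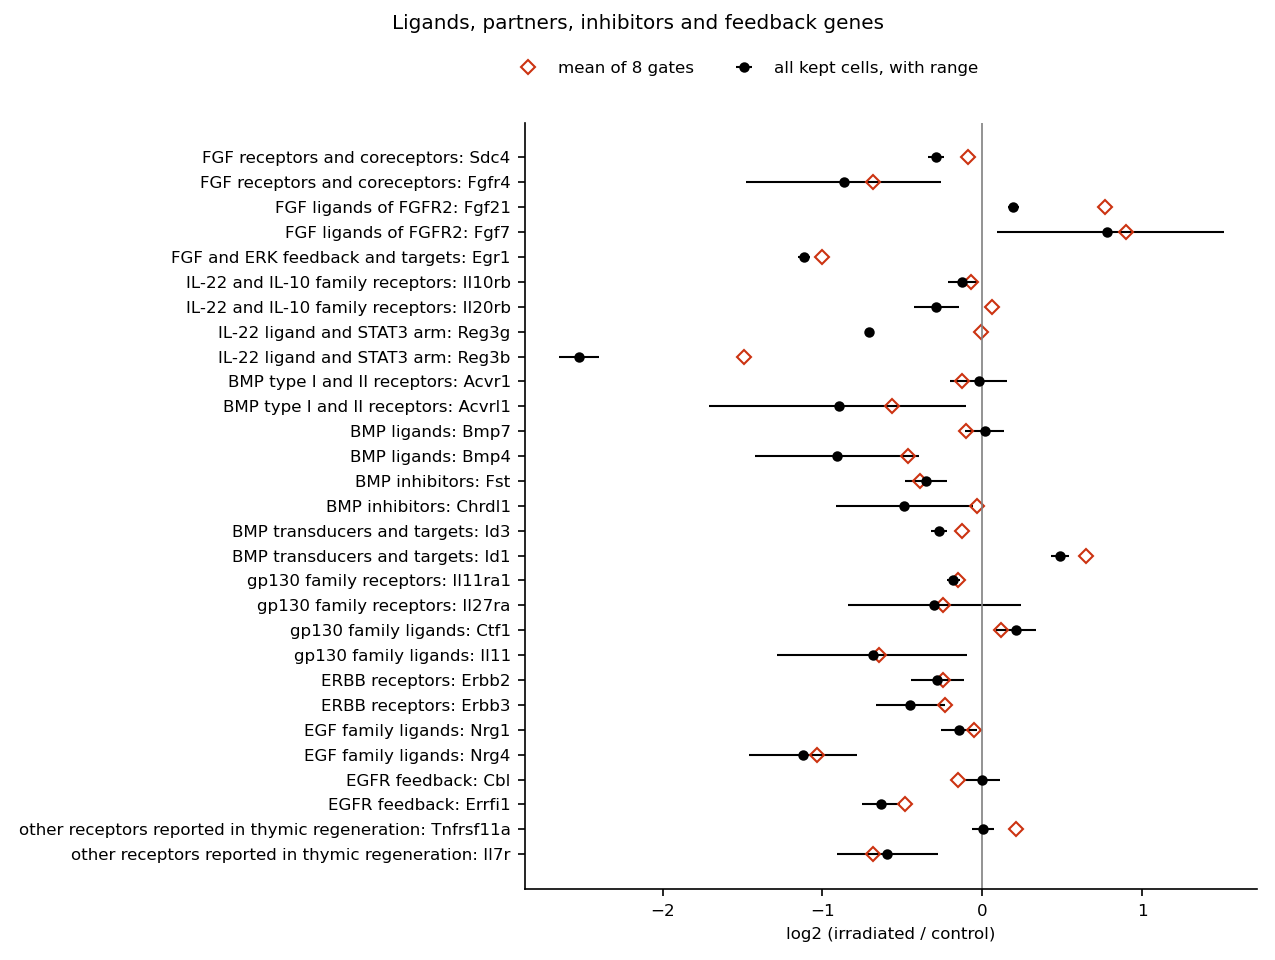
Log2 ratio of irradiated over control (x axis) for the gene of most UMIs and the gene of largest ratio of each pathway list (y axis), the 6 receptors aside. Black points are all kept cells with the range from opposite ends of both 95% Poisson intervals, red diamonds the mean over 8 gates, and most points lie left of 0, with Reg3b farthest at -2.52 and Id1 and Fgf7 to the right.

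Over the 107 genes of the 15 lists other than the 6 receptors, 97 had at least 100 UMIs, and 1 of these (Fgf7) was past a log2 ratio of 0.5 upward and 19 downward, or 20.6% against 13.6% of all genes. Their median ratio was -0.27 over all kept cells and -0.10 as the mean over 8 gates. In the test across gates, 91 were tested. Of these, 40 were higher and 17 lower in Pdpn-positive cells (against 19.7% and 18.4% of all genes), and 37 higher and 22 lower in Ccl21a-high mTECs (against 21.9% and 24.4%). In the keratinocyte-like gate 33 were higher and 3 lower (36.3% and 3.30%, against 17.5% and 10.7% of all genes), and in cTECs 26 and 24 (28.6% and 26.4%, against 22.5% and 22.3%). A total of 16 were higher and 28 lower in tuft cells (17.6% and 30.8%, against 24.6% and 20.2%), and 16 and 38 in cycling mTECs (17.6% and 41.8%, against 30.9% and 24.3%). In Aire-high mTECs the counts were 36 and 35 (39.6% and 38.5%, against 34.6% and 26.3%), and in the enterocyte- and microfold-like gate 25 and 24 (27.5% and 26.4%, against 27.9% and 23.8%). Among 12 other receptors reported in thymic regeneration, Tnfrsf11a (RANK) had the most UMIs, with a ratio of 0.01 and a peak in the enterocyte- and microfold-like gate (2.16 and 2.22 UMIs per 10000), and Il7r had the largest ratio (-0.59, -0.91 to -0.28).

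The genes whose levels followed Fgfr2, Egfr, Bmpr1a and Bmpr2 most closely were listed over the 16 sums of gate and library, among 12595 genes with at least 500 UMIs, as a description. Fgfr2 was most like Rgma (Pearson's r = 0.988), Tgfb1i1 (0.987) and Mir205hg (0.987). Egfr was most like Cd151 (0.981), Cnn2 (0.980) and Cux1 (0.979). Bmpr1a was most like Minar2 (0.978), Slc37a3 (0.977) and Laptm4a (0.974), and Bmpr2 most like Glce (0.976), Meis1 (0.973) and Cux1 (0.972). Among themselves, the 5 receptors had correlations from 0.892 (Bmpr1a with Bmpr2) to 0.965 (Fgfr2 with Egfr). The 16 points share 2 libraries and 8 gates, so these values restate the shared pattern over TEC types.

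Outside the epithelial gates, cells with thymocyte RNA had Lifr at 2.98 and 3.93 UMIs per 10000 in the control and irradiated library, between its cTEC and its keratinocyte-like levels. Fgfr2 was at 0.420 and 0.419 there, Bmpr1a at 0.387 and 0.537, Bmpr2 at 0.533 and 0.611 and Egfr at 0.339 and 0.337, with Il22ra1 at 0 UMIs in both. The cells with thymocyte RNA also held 6 epithelial markers at a summed 71.0 and 85.5 UMIs per 10000, against 84.4 and 86.2 in Ccl21a-high mTECs. The receptor levels there are therefore not levels of thymocytes alone, and the part of each cell type was not tested. Non-epithelial cells held these markers at 3.27 and 2.74. The 11 non-epithelial cells were too few to set levels.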

How the data were processed

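UMI counts per gene and cell were taken from the matrices deposited by the authors, which per the file headers came from Cell Ranger 5.0.1 (the submitters' processing notes give 5.1). The kit is v3 in the study's methods and v2 in the labels, and the labels give an age of 9 weeks in 1 field and another age in the protocol text. The deposited values are raw counts, not normalized.

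Cells with over 2000 and under 7500 detected genes and under 15% mitochondrial UMIs were kept (genes seen in fewer than 5 barcodes did not count as detected). No doublet caller was run, and cells meeting several gates, which could hold doublets, took the first gate. Levels were UMIs of a gene per 10000 UMIs of all cells in a gate, with exact 95% Poisson intervals, and a count of 0 was given an upper limit of 3 counts. Intervals and limits cover counting error only. Log2 ratios had 0.5 UMIs added to each sum. Shares were computed after thinning each cell to 4000 UMIs (seed 1), which left out 5 shallower irradiated cells. Sums per gate and library were fitted in edgeR 4.0.16 (quasi-likelihood, TMM, gate and library as terms, 7 residual degrees of freedom, R 4.3.3), with adjusted p under 0.05 as the threshold. DESeq2 1.42.0 was an alternative. The edgeR test was tried on simulated counts in which a set of genes was changed in 1 gate only, and the ratio ranges on Poisson counts. In the data 90.9% of genes differed over the gates. The simulation therefore does not show how the edgeR test behaves here. Python 3.11.15, numpy 2.4.6, scipy 1.17.1 and pandas 2.3.3 were used for the rest.

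The 6 receptors, the gates and the pathway lists were chosen with earlier results of these data known. Named from each list were the gene of most UMIs and the gene of largest absolute log2 ratio among those with at least 100 UMIs, and, for each receptor, the 3 genes of highest correlation of log2 (UMIs per 10000 + 0.01) among genes with at least 500 UMIs. This list for Lifr is not reported here. Further ligands and partners (Lif, Fgf10, Il22, Il22ra2, Il6st, Il10rb) were named for their role, and Socs3 after its values were seen, with Jak1 and Stat3 of its list beside it. Ccl21a, used for a gate, has near-identical copies, and reads may be split among them. Alternatives were other gate minimums, cells of several gates left out, other limits on cells, another normalization, filter, denominator, summary and thinning depth. Reference protein sequences were not used here.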

Additional observations from a re-analysis of the deposited data

How the results depend on the processing

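No paired analysis was possible because each condition was 1 library. Of 40 receptor and gate combinations, 37 passed the threshold, against 36 with doubled gate minimums and 35 with the number of cells as the offset. This offset, the fits without TMM, with ungated cells added and without the keratinocyte-like gate, and leaving thymocyte-RNA and non-epithelial cells out of all kept cells, were chosen after seeing the data. In the keratinocyte-like gate, the Lifr difference changed sign to -0.12 with doubled minimums and to -0.61 without cells of more than 1 gate. Without those cells, 0 receptors were higher and 1 was lower in that gate, against 4 and 0 in the main fit. The other gates left in that fit kept their counts. In the cycling gate, with the number of cells as the offset, Bmpr2 became 0.41, Fgfr2 0.026, Egfr 0.17 and Bmpr1a 0.55, while all genes shifted by 0.74. Without cells of more than 1 gate, the log2 ratio between libraries became -0.24 for Fgfr2 in the keratinocyte-like gate, -0.15 for Lifr in the cycling gate and -0.22 for Egfr over all kept cells. Only 20 control and 101 irradiated cycling cells were left there, so that gate was not in the fit across gates. The cause of these changes was not tested. Of the other recomputed values of the fit across gates, counted over all its alternatives, 377 kept their direction and their side of the threshold, 5 lost the threshold and 2 passed it (Bmpr1a in the cycling gate, -0.22 with DESeq2 and -0.35 without TMM).

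Thinning to 4000 UMIs before summing gave 10 of 40 ratios past 0.5, against 6 without thinning and without a minimum count, a ratio of -0.14 for Bmpr2 and of 0.39 for Lifr over all kept cells. Shares of cells depended on depth. Thinned to 3000 UMIs, the control and irradiated shares were 15.6% and 16.3% for Fgfr2, 16.6% and 17.7% for Bmpr1a, 16.1% and 15.3% for Bmpr2, 36.7% and 40.2% for Lifr, and 13.7% and 12.9% for Egfr. Not thinned, they were 39.1% and 40.3%, 50.5% and 51.9%, 49.4% and 47.9%, 57.7% and 61.7%, and 40.8% and 39.6% in the same order. With 4 UMIs per library, Il22ra1 could not be compared.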
